A study of Mus musculus with 12 samples.

Results

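The RNA levels of 10 genes that write, copy, read or remove DNA methylation, or that silence retroelements, were compared across resting B lymphocytes and naive CD4+ T lymphocytes from mouse spleen. The genes were chosen by name: the DNA methyltransferases Dnmt1, Dnmt3a and Dnmt3b, the Dnmt1 cofactor Uhrf1, the dioxygenases Tet1, Tet2 and Tet3, the methyl-CpG reader Mbd2, the corepressor Trim28 and the histone methyltransferase Setdb1. They were 10 of 41128 genes in the expression table, and all 10 were among the 12520 genes tested, which reached an adjusted TPM of 1 in 3 or more libraries. An adjusted TPM is the length-normalised expression value that the authors deposited for each gene and library, so that levels can be set side by side between genes. It is not a read count, and the depth of each library is unknown.

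The 12 RNA-seq libraries fell into 4 groups of 3, namely female B cells (libraries 1 to 3), male B cells (1 to 3), female T cells (4 to 6) and male T cells (4 to 6). All came from untreated C57BL/6J mice aged 6 to 8 weeks, with no transgene or deletion named in the labels. B cells were CD43-, and T cells were depleted of other lineages and then sorted as CD4+, CD62L high, CD44 low and CD25-. The series describes the replicates as pooled, so replicate error here is that between pools of animals. Defining markers matched the labels: the summed adjusted TPM of Cd79a, Cd79b, Ms4a1 and Pax5 was 2220.4 to 2643 in the B cell libraries and 0.896 to 4.91 in the T cell libraries, whereas that of Cd3d, Cd3e, Cd4, Lck and Tcf7 was 9.76 to 14.1 and 1017 to 1194. In B cells the sum of these T cell markers was mostly Lck (mean 10.4). The B cell means of Cd3d, Cd3e, Cd4 and Tcf7 were 0.220, 0.0454, 0.00361 and 0.534. Summed markers of other cells were set side by side in the same way. The sum for monocytes, macrophages and neutrophils was 9.10 to 13.6 in B cells and 1.09 to 4.62 in T cells, that for dendritic cells 2.46 to 6.61 and 0.105 to 0.698, and that for plasma and germinal centre B cells 6.76 to 10.4 and 3.04 to 4.26. Genes of the last list went different ways. The B and T cell means were 6.15 and 0.00367 for Sdc1, 0.676 and 1.66 for Prdm1, and 1.53 and 1.88 for S1pr2. The erythroid and platelet sum ranged most, from 1.09 to 196 and from 1.97 to 42.9. The natural killer sum was 0.214 to 0.788 in B cells and 0.00794 to 0.0552 in T cells, Foxp3 of regulatory T cells was 0.146 to 0.323 and 0.440 to 2.57, and the CD8 sum was 0.607 to 2.32 and 5.48 to 8.27. Within the CD8 sum, Cd8b1 was higher in T cells (mean 7.06 against 0.0383) and Cd8a higher in B cells (mean 1.36 against 0.166). The part of these cells in the results below was not tested, and in bulk samples fewer cells of a type and less RNA per cell cannot be told apart.

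In mammals, a methylated cytosine in a CpG is copied to the new DNA strand after replication by Dnmt1, which Uhrf1 brings to hemimethylated sites, while Dnmt3a and Dnmt3b place methyl groups on unmethylated DNA. The Tet enzymes oxidise methylcytosine, which leads to its removal. At retroelements such as intracisternal A particles, zinc finger proteins recruit Trim28 (also called KAP1), which in turn brings Setdb1 to methylate histone H3 on lysine K9, and readers such as Mbd2 bind methylated CpGs and recruit corepressors. In lymphocytes, Tet2 and Dnmt3a are best known for loss-of-function mutations in blood cancers, and Uhrf1 and Dnmt1 for their rise when cells enter the cell cycle.

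Uhrf1 and Tet1 differed most between the cell types, so the sequences upstream of their RefSeq starts are shown, on the GRCm38.p6 build and written 5′ to 3′ on the strand of the gene. Capitals mark 4 words searched on both strands, of which TTCCCGC is an E2F-type word, as is the word TTGGCGC, while GGGCGG is the word of Sp family factors and CCAAT that of the factor NF-Y. None of the words contains another. Uhrf1 has a pair of annotated starts, with the windows chr17:56303087-56303336 and chr17:56304063-56304312 on the plus strand. The Tet1 window is chr10:62887325-62887574 on the minus strand. The Tet1 window and the latter Uhrf1 window lie inside the genes as GENCODE draws them, so neither is upstream of the outermost GENCODE start.
Uhrf1, first start: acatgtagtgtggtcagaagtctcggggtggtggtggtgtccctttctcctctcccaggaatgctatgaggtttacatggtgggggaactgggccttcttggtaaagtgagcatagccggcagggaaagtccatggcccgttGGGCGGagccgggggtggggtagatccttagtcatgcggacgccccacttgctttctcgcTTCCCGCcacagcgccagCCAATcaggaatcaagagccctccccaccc
Uhrf1, second start: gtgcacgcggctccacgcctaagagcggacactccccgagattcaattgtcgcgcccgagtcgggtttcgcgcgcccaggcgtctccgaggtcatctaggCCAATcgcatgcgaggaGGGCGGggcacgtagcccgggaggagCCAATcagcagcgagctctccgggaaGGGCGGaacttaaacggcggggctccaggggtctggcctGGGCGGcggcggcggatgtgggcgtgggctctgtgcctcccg
Tet1: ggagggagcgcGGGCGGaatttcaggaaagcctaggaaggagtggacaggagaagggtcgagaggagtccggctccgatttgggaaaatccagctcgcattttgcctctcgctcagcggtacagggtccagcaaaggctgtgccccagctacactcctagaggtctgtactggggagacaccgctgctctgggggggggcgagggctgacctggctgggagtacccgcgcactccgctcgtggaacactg

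The first Uhrf1 window held TTCCCGC 48 bases before the start, GGGCGG 108 bases before it and CCAAT 30 bases before it. The second held GGGCGG 3 times and CCAAT at 150 and 107 bases before the start, and it was the richer in CG dinucleotides, with 30 against 10. The Tet1 window held GGGCGG alone, 239 bases before the start, and 15 CG dinucleotides. A median of 6 CG dinucleotides was found over all 32851 promoter windows of this length. Of the 10 genes, 9 had a window (14 windows in all), and the gene without one was Mbd2. TTCCCGC was in 2 of the 14, 1 each of Trim28 and Uhrf1, and in 3.82% of all windows, and TTGGCGC was in 0 of the 14 and in 1.97% of all. GGGCGG was in 12 of the 14 against 32.7% of all windows, and CCAAT in 6 of the 14 (of Dnmt1, Setdb1, Tet3 and Uhrf1) against 33.8%. A match of letters is a description of the window and not of a bound site.

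In B cells the order of mean adjusted TPM was Trim28 (80.0), Mbd2 (71.1), Dnmt1 (32.7), Setdb1 (18.7), Tet3 (18.2), Dnmt3a (15.5), Tet2 (11.5), Uhrf1 (8.61), Dnmt3b (2.71) and Tet1 (1.16). The mean level of the median gene tested was 10.7. Neighbours whose 6 libraries overlapped were Trim28 with Mbd2, Setdb1 with Tet3, Tet3 with Dnmt3a, and Tet2 with Uhrf1. Within libraries, Trim28 was above Mbd2 in 6 of 6 and Setdb1 above Tet3 in 3 of 6.

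In T cells the order was Mbd2 (95.02), Trim28 (90.8), Dnmt1 (41.4), Tet3 (20.4), Setdb1 (20.2), Dnmt3a (17.5), Tet2 (7.68), Tet1 (5.91), Dnmt3b (3.11) and Uhrf1 (1.05), against 10.9 for the median gene. Overlapping neighbours were Mbd2 with Trim28, Tet3 with Setdb1, and Tet2 with Tet1, although Tet2 was above Tet1 in 6 of 6 libraries. Tet1 was thus last of the 10 genes in B cells and Uhrf1 last in T cells.

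**Figure D1:**
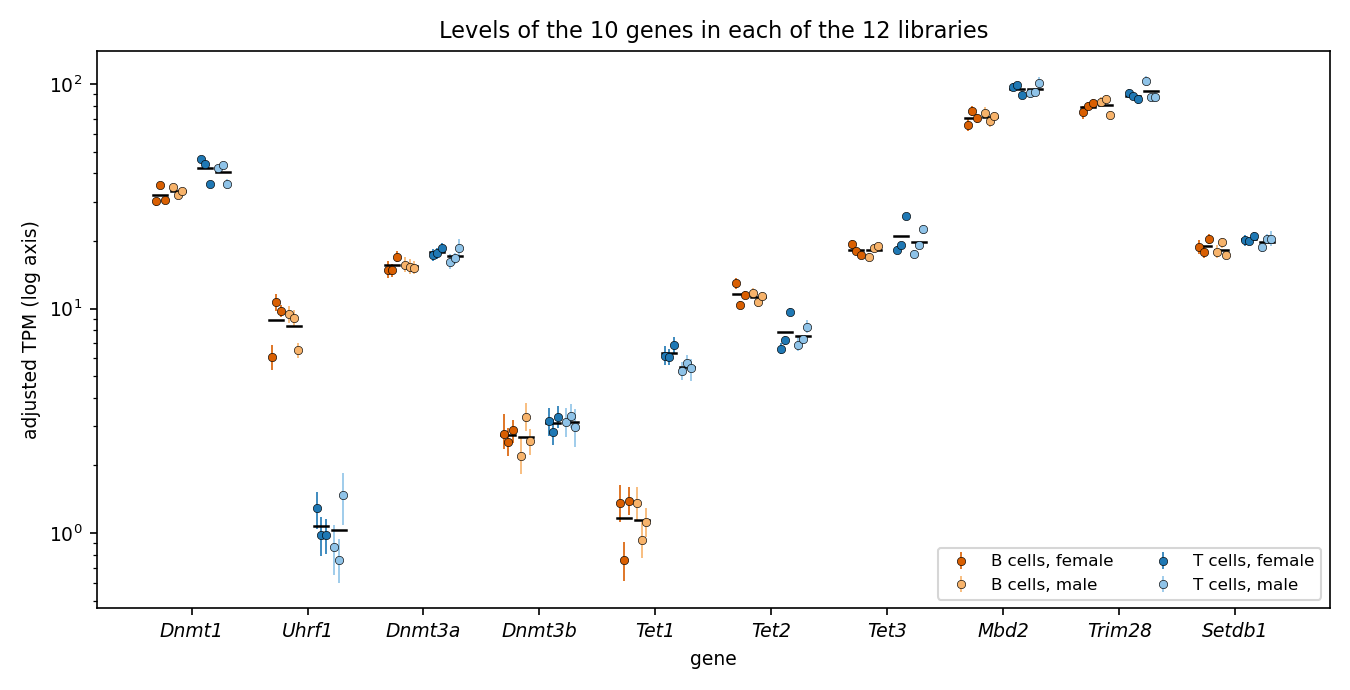
Adjusted TPM (log axis) of the 10 genes in each of the 12 libraries, with libraries as points, deposited lower and upper values as vertical bars and group means as horizontal lines. Uhrf1 was 6.09 to 10.7 in B cells and 0.754 to 1.47 in T cells, Tet1 was 0.760 to 1.39 and 5.27 to 6.86, and the other 8 genes lay much closer together in both cell types.

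Between B and T cells, 7 of the 10 genes passed the test (limma on log2(adjusted TPM + 1), adjusted p under 0.05 over all 12520 genes). Uhrf1 and Tet2 were higher in B cells, and Tet1, Mbd2, Dnmt1, Trim28 and Dnmt3a higher in T cells. The background was high, since 73% of all genes tested passed in this comparison (31.4% with the higher level in B cells, 41.6% with the higher level in T cells), so the count of 7 was close to the share over all genes. Uhrf1 and Tet1 also passed with a log2 difference of at least 1, as did 21.6% of all genes. The 6 B and 6 T libraries did not overlap for 5 of the 10 genes (Dnmt1, Uhrf1, Tet1, Tet2 and Mbd2), and for 53.9% of all genes. The deposited lower and upper values of the 2 cell types were also apart for Uhrf1, Tet1 and Mbd2. How many of all genes were apart in that way was not counted. The median log2 difference, B minus T, was -0.16 over the 10 genes and -0.09 over all genes.

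The scaling between libraries bore on the smaller of these differences. The totals of adjusted TPM ran from 561020 to 1453940, and the most abundant gene, Rn7sk or Yam1, took 11.4% to 37.4% of a total. With all libraries set to the same total of 1000000, the median log2 difference over all genes moved from -0.09 to 0.25, a shift of 0.34, and Dnmt1, Dnmt3a and Trim28 changed sign. Relative to the median of all genes, the log2 differences under the deposited scaling and under the rescaled totals were -0.24 and -0.21 for Dnmt1, -0.08 and -0.06 for Dnmt3a, -0.09 and -0.06 for Trim28, and -0.32 and -0.29 for Mbd2. On the same relative scale they were 2.30 and 2.34 for Uhrf1, -1.60 and -1.75 for Tet1, and 0.62 and 0.63 for Tet2.

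**Figure D2:**
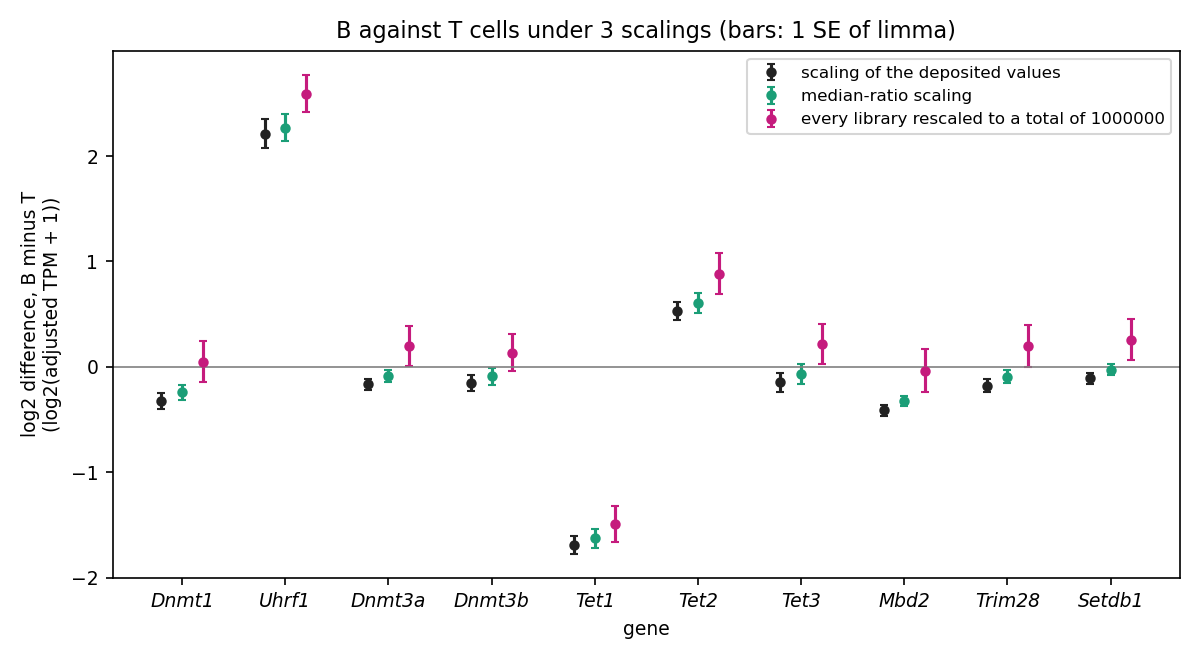
Log2 difference, B minus T, of log2(adjusted TPM + 1) for the 10 genes under 3 scalings of the libraries, with bars of 1 SE of limma. Uhrf1 (2.21), Tet2 (0.53) and Tet1 (-1.69) kept their side of 0 under all 3 scalings, whereas Dnmt1, Dnmt3a, Dnmt3b, Tet3, Trim28 and Setdb1 lay below 0 under the deposited scaling and above 0 with totals rescaled to 1000000.

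Maintenance of methylation rests on Dnmt1 and Uhrf1. Uhrf1 (ENSMUSG00000001228.9, chr17:56303321-56323486) had adjusted TPM of 6.09, 10.7 and 9.79 in female B cells and 9.46, 9.06 and 6.56 in male B cells. In T cells it was 1.29, 0.977 and 0.975 in females and 0.862, 0.754 and 1.47 in males. All 6 B cell libraries lay above all 6 T cell libraries, and the lowest B cell value was several times the highest T cell value. In T cells only female library 4 and male library 6 reached 1, so the B cell libraries brought Uhrf1 into the test. The mean was 8.17-fold higher in B cells, at 8.61 ± 1.86 (SD, n = 6) against 1.05 ± 0.27 (SD, n = 6), with a log2 difference of 2.21 (SE 0.14, adjusted p = 9.7e-09). Uhrf1 was also the most variable of the 10 genes within groups, with a pooled SD of 0.27 on the log2 scale against 0.13 for the median gene.

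Dnmt1, the maintenance methyltransferase (ENSMUSG00000004099.10, chr9:20907209-20959888), went the other way. Its adjusted TPM was 30.0, 35.5 and 30.6 in female B cells and 34.7, 32.0 and 33.4 in male B cells, against 46.6, 44.0 and 35.8 in female T cells and 42.2, 43.6 and 36.04 in male T cells. The cell types did not overlap, but the highest B cell library (35.5) and the lowest T cell library (35.8) nearly met. Dnmt1 was 1.26-fold higher in T cells by the means (log2 difference -0.33, SE 0.08, adjusted p = 0.0019), a direction that turned to 0.05 with rescaled totals. The ratio of Dnmt1 to Uhrf1 within a library, which no scaling between libraries can move, was 3.12 to 5.10 in B cells and 24.5 to 57.8 in T cells. The difference in the log2 ratio was -3.37 (adjusted p = 0.0043 over the 6 ratios compared, exact two-sided permutation test, 924 arrangements, smallest unadjusted p 0.0022). No pseudocount was used, and Uhrf1 was low in T cells (0.754 to 1.47), so the size of the difference depends on low values. It was -2.54 with a pseudocount of 1, and -3.59 and -3.20 with the deposited lower and upper values.

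The de novo methyltransferases differed little. Dnmt3a (ENSMUSG00000020661.10, chr12:3806007-3914443) had adjusted TPM of 14.9, 14.8 and 17.1 in female B cells, 15.7, 15.4 and 15.2 in male B cells, 17.4, 17.7 and 18.6 in female T cells and 16.0, 16.8 and 18.7 in male T cells. B cell library 3 of the females reached into the range of T cells, so the cell types overlapped. Dnmt3a passed the test at 1.13-fold higher in T cells (log2 difference -0.17, SE 0.06, adjusted p = 0.016), but not with median-ratio scaling (-0.08, adjusted p = 0.18), and its sign turned with rescaled totals (0.20). Dnmt3b (ENSMUSG00000027478.10, chr2:153649450-153687730), the least abundant methyltransferase of the 3, was 2.21 to 3.30 with a median of 2.67 in B cells and 2.82 to 3.32 with a median of 3.14 in T cells. Its log2 difference was -0.15 (95% interval -0.32 to 0.01, adjusted p = 0.086) and did not pass the test. The ratio of Dnmt3a to Dnmt3b was 4.66 to 7.11 in B cells and 5.05 to 6.31 in T cells (log2 difference 0.03, exact permutation test, adjusted p = 0.75). Dnmt1 made up 64.2% ± 2.4 of the summed adjusted TPM of the 3 methyltransferases in B cells and 66.6% ± 3.4 in T cells (SD, n = 6), Dnmt3a 30.5% and 28.4%, and Dnmt3b 5.34% and 5.03%.

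The Tet genes moved in different directions. Tet1 (ENSMUSG00000047146.10, chr10:62804570-62908996) had adjusted TPM of 1.36, 0.760 and 1.39 in female B cells and 1.37, 0.933 and 1.12 in male B cells, against 6.14, 6.06 and 6.86 in female T cells and 5.27, 5.73 and 5.42 in male T cells. Every T cell library was above every B cell library. The mean was 5.12-fold higher in T cells, at 5.91 ± 0.57 against 1.16 ± 0.26 (SD, n = 6), with a log2 difference of -1.69 (SE 0.09, adjusted p = 1.4e-09).

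Tet2 (ENSMUSG00000040943.8, chr3:133463679-133545139) had adjusted TPM of 13.0, 10.4 and 11.5 in female B cells, 11.7, 10.7 and 11.4 in male B cells, 6.62, 7.21 and 9.66 in female T cells and 6.91, 7.35 and 8.32 in male T cells. The groups did not overlap, and the nearest libraries were female T cell library 6 (9.66) and female B cell library 2 (10.4). Tet2 was 1.49-fold higher in B cells (log2 difference 0.53, SE 0.09, adjusted p = 0.00013). Tet3 (ENSMUSG00000034832.10, chr6:83362373-83459084) was 16.9 to 19.3 with a median of 18.3 in B cells and 17.6 to 25.8 with a median of 19.2 in T cells, with a log2 difference of -0.15 (95% interval -0.34 to 0.04, adjusted p = 0.15). The T cell range of Tet3 was stretched by library 6 of both sexes, at 25.8 in females and 22.6 in males.

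Within libraries, the ratio of Tet2 to Tet3 was 0.573 to 0.693 in B cells and 0.362 to 0.394 in T cells (log2 difference 0.74, adjusted p = 0.0043, exact permutation test). The T cell ratio was narrow even though both genes were at their highest in the libraries numbered 6. As a share of the summed adjusted TPM of the 3 Tet genes, Tet1 was 3.74% ± 0.80 in B cells and 17.5% ± 1.7 in T cells, Tet2 was 37.1% ± 1.6 and 22.5% ± 0.68, and Tet3 was 59.1% ± 2.4 and 59.95% ± 1.3 (SD, n = 6). The sums themselves were 30.8 ± 1.6 and 34.0 ± 4.6 and overlapped. The ratio of Tet2 to Dnmt1, a demethylation gene against the maintenance gene, was 0.292 to 0.434 in B cells and 0.142 to 0.270 in T cells (log2 difference 0.92, adjusted p = 0.0043, exact permutation test). That of Dnmt1 to Dnmt3a was 1.79 to 2.39 and 1.92 to 2.68 (-0.16, adjusted p = 0.27, exact permutation test), and without both T cell libraries numbered 6 the difference was -0.30 with an adjusted p of 0.021.

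**Figure D3:**
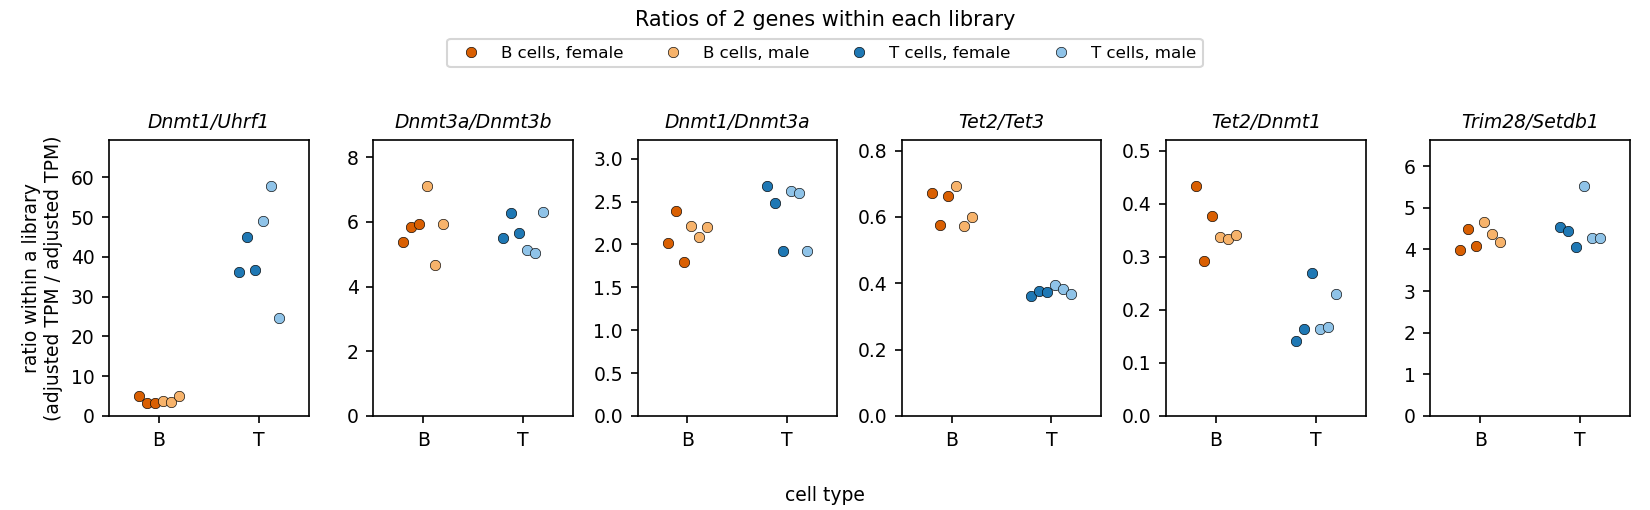
Ratios of the adjusted TPM of 2 genes within each library (linear axes from 0), with 1 point a library, for 6 B and 6 T cell libraries. The cell types were apart for Dnmt1/Uhrf1 (3.12 to 5.10 against 24.5 to 57.8), Tet2/Tet3 and Tet2/Dnmt1 and overlapped for Dnmt3a/Dnmt3b, Dnmt1/Dnmt3a and Trim28/Setdb1.

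Mbd2, which binds methylated CpGs and recruits a nucleosome remodelling and deacetylase complex (ENSMUSG00000024513.11, chr18:70568189-70626131), was among the most abundant of the 10 genes. Its adjusted TPM was 66.0, 75.7 and 70.5 in female B cells and 74.5, 68.2 and 71.9 in male B cells, against 97.2, 99.0 and 89.3 in female T cells and 91.0, 92.7 and 101 in male T cells. The gap between the highest B cell library and the lowest T cell library was wider than the range within either cell type. The mean was 1.34-fold higher in T cells (log2 difference -0.41, SE 0.05, adjusted p = 1.9e-05), and with rescaled totals the difference was -0.03 and did not pass (adjusted p = 0.90).

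Trim28, the corepressor of zinc finger proteins at retroelements (ENSMUSG00000005566.8, chr7:12999114-13031035), had adjusted TPM of 75.0, 80.1 and 82.8 in female B cells and 83.4, 86.3 and 72.6 in male B cells. In T cells it was 91.7, 88.7 and 85.5 in females and 104, 87.3 and 87.6 in males. The cell types overlapped at male B cell library 2 (86.3), and male T cell library 4 stood above the other T cell libraries. Trim28 passed the test at 1.13-fold higher in T cells (log2 difference -0.18, SE 0.06, adjusted p = 0.023), but not without that library (adjusted p = 0.058), without female B cell library 1 (0.054), without male B cell library 3 (0.061) or with median-ratio scaling (-0.09, adjusted p = 0.18), and its sign turned with rescaled totals (0.20). Setdb1, the H3K9 methyltransferase that Trim28 brings in (ENSMUSG00000015697.9, chr3:95323525-95357202), was 17.4 to 20.3 with a median of 18.3 in B cells and 18.8 to 21.0 with a median of 20.4 in T cells. Its log2 difference was -0.11 (95% interval -0.22 to 0.01, adjusted p = 0.082), and it was the least variable of the 10 genes, with a pooled SD of 0.08 on the log2 scale. The ratio of Trim28 to Setdb1 was 3.99 to 4.67 in B cells and 4.07 to 5.52 in T cells (log2 difference -0.07, adjusted p = 0.52, exact permutation test).

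Reads of overlapping genes could enter some of these values, since Dnmt3a and Dnmt3b overlap the antisense genes Dnmt3aos and Dnmt3bos, Trim28 overlaps Zbtb45, Setdb1 overlaps Cers2, and Tet2 and Tet3 overlap transcripts on the other strand. Other overlaps lie on the same strand, where counting by strand would not part them. These are Gm48353 and Gm26479 for Tet1, Mir7081 for Dnmt1, and Mir6374 and 5430434F05Rik for Tet3. The library kit was stranded, and whether counting used the strand is not given in the sources used here. Uhrf1 and Mbd2 overlap no annotated gene. The values are per gene, so isoforms of Dnmt3a or Tet1 were not separated.

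In both sexes the T cell libraries numbered 6 held the extreme T cell values for 4 of these genes, as noticed after seeing the data. They had the lowest Dnmt1 (35.8 and 36.04) and the highest Dnmt3a (18.6 and 18.7), Tet2 (9.66 and 8.32) and Tet3 (25.8 and 22.6) of the T cell libraries. Without the pair, 6 of the 10 genes passed between B and T cells, as did 9233 of all 12520 genes. The log2 differences were then -0.42 for Dnmt1 and 0.63 for Tet2, and Dnmt3a no longer passed in limma (-0.12, adjusted p = 0.064). That of Tet3 was -0.03 without them (adjusted p = 0.70). Male T cell library 6 also had the largest total of adjusted TPM (1453940), of which Yam1 took 37.4%.

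Within each sex the larger differences were alike in size. In females 6 of the 10 genes passed, 2 toward B cells and 4 toward T cells. Of all genes 62.7% passed in females, 27.1% toward B cells and 35.6% toward T cells. In males 5 of the 10 genes passed, 2 toward B cells and 3 toward T cells, against 62.3% of all genes, 27.6% and 34.7% by direction. Uhrf1 differed by 2.22 on the log2 scale in females and 2.21 in males (SE 0.19 each), and Tet1 by -1.77 and -1.60 (SE 0.12 each). Tet2 differed by 0.53 in each sex, and Mbd2 by -0.42 and -0.40. Dnmt1 was at -0.38 (adjusted p = 0.0079) and -0.27 (adjusted p = 0.043), the latter lost in 12 of 21 alternatives. Dnmt3a passed in females at the edge of the threshold (-0.19, adjusted p = 0.04997), a call lost in 15 of 21 alternatives, and not in males (-0.14, adjusted p = 0.13). With rescaled totals Dnmt1 and Mbd2 turned sign within males, and Dnmt3a within both sexes. The difference between the sexes itself was tested by the interaction below. A label number of unstated meaning, described there, cannot be told apart from cell type within a sex.

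Between females and males, 0 of the 10 genes passed the test in B cells, where 0.144% of all genes passed, and 0 in T cells, where 0.104% of all genes passed. None had an unadjusted p under 0.05 in limma, as 2.98% and 2.55% of all genes did. The log2 differences, female minus male, were -0.06 to 0.06 in B cells and -0.06 to 0.18 in T cells. Among the 95% intervals, the widest were those of Uhrf1, from -0.37 to 0.48 in B cells and -0.37 to 0.47 in T cells, which leave room for a sex difference of that size. The labels carry a further number, of unstated meaning, that is shared by the 3 libraries of a group. It differs between females and males of each cell type, and between B and T cells of each sex. It therefore cannot be told apart from sex within a cell type, from cell type within a sex, or from the difference of the sex effect between B and T cells. Tet1 in T cells had the largest difference, at 6.06 to 6.86 in females and 5.27 to 5.73 in males (log2 difference 0.18, 95% interval -0.08 to 0.45, adjusted p = 1.00). It was 1 of 10 genes without overlap of the 3 female and 3 male T cell libraries, against 8.49% of all genes, and 0 of 10 were without overlap in B cells, against 7.2% of all genes. For the difference of the sex effect between B and T cells, 0 of the 10 genes passed, as did 0% of all genes, and the values ran from -0.17 (Tet1) to 0.04, with an unadjusted p under 0.05 for none of the 10 genes and for 2.36% of all genes.

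Uhrf1 is known as a gene of cycling cells, so cell cycle genes were set beside it. All 11 listed cell cycle genes passed between B and T cells, against a background of 73% of all genes. Mki67, Ccnb1 and Cdk1 were at most 0.993, 0.438 and 0.377 in T cells, so only the B cell libraries brought them into the test. With no filter 10 of the 11 passed, 8 of them higher in B cells, against 24591 of 41128 genes. Of the 11, 8 were higher in B cells and 3 (Mcm2, Mcm6 and Mcm7) higher in T cells, against 31.4% and 41.6% of all genes. Their median log2 difference was 1.44, against -0.09 over all genes. The 3 that were higher in T cells did not pass with rescaled totals, where Mcm2 turned to 0.03. With the T cell pairs as a block 10 of the 11 passed, and Mcm6 did not, against 8736 of all 12520 genes. Mki67, a marker of proliferating cells, was 5.98 to 14.8 in B cells and 0.210 to 0.993 in T cells (log2 difference 2.99, SE 0.18, adjusted p = 8.8e-09). Tk1, the thymidine kinase of S phase, was 12.4 to 18.0 against 0.993 to 2.09 (2.84), and Top2a, the topoisomerase of dividing cells, was 11.6 to 23.5 against 2.65 to 4.04 (2.21). Mcm2, a subunit of the replicative helicase, was at -0.34 (SE 0.10, adjusted p = 0.0095).

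Within B cells, Uhrf1 followed the same libraries as Mki67. Female library 1 and male library 3 had the lowest Mki67 (8.13 and 5.98) and the lowest Uhrf1 (6.09 and 6.56), whereas female library 2 had the highest of both (14.8 and 10.7). Dnmt1 was also highest in female library 2 (35.5), and was 30.0 and 33.4 in the libraries with the lowest Mki67. In T cells, Mki67 was highest in the libraries numbered 6 (0.993 and 0.591), where Uhrf1 was 0.975 and 1.47 and Dnmt1 was lowest. The part of cycling cells in the Uhrf1 difference was not tested.

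**Figure D4:**
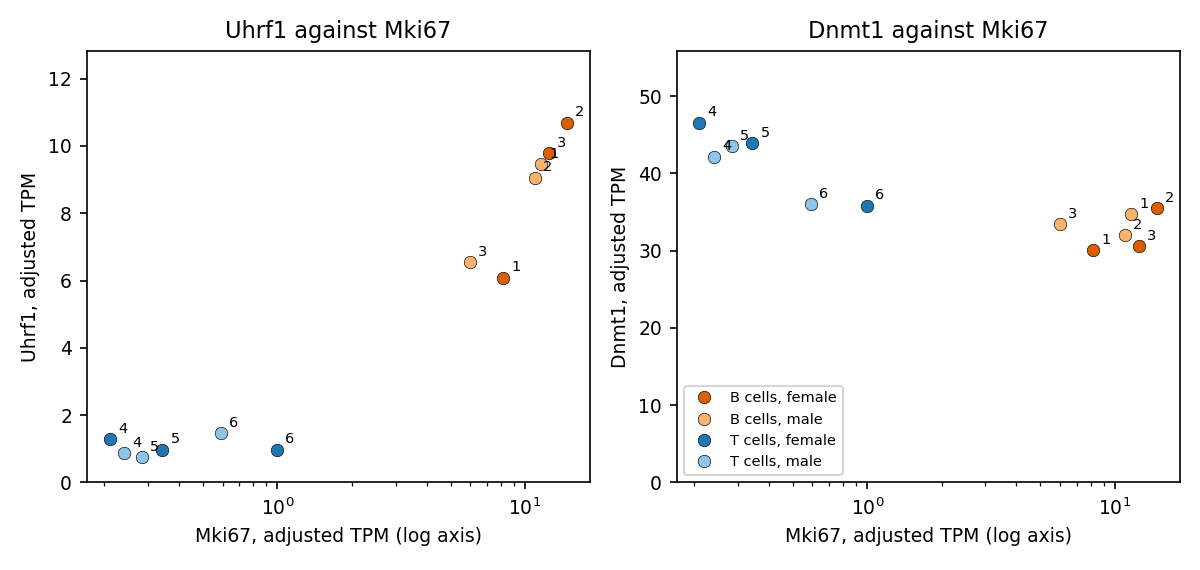
Adjusted TPM of Uhrf1 (left) and Dnmt1 (right) against that of Mki67 (log axis) in the 12 libraries, with the library number beside each point. The B cell libraries with the lowest Mki67 (5.98 and 8.13) had the lowest Uhrf1, and Dnmt1 was lower in B cells (30.0 to 35.5) than in T cells (35.8 to 46.6) under the deposited scaling.

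Genes whose log2 values were most like those of a member over the 12 libraries were ranked by Pearson's r among 11618 genes. The 12 points form a B and a T cluster, so a high r mainly reports the same B to T difference, and the r of deviations from group means is given beside it as a description. For Uhrf1 the nearest were Rnf19b (0.996 and 0.91), Pole (0.994 and 0.89) and Rab43 (0.994 and 0.84). Pole is the catalytic subunit of a replicative DNA polymerase, at 4.07 in B cells and 1.13 in T cells. For Tet1 they were Smpd5 (0.995 and 0.77), Zfp386 (0.994 and 0.78) and Zbtb25 (0.994 and 0.80). For Tet2 they were Ash1l (0.987 and 0.94), a histone methyltransferase, Rbm26 (0.980 and 0.94) and Aff4 (0.975 and 0.89). Those of Mbd2 were Rab8b (0.991 and 0.90), Tpt1-ps6 (0.988 and 0.89) and Dnajc3 (0.987 and 0.95), and those of Dnmt1 were 1110004F10Rik (0.970 and 0.97), Atp5k (0.967 and 0.93) and Cuta (0.967 and 0.91).

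For the remaining genes the r over the 12 libraries was lower, down to 0.86. The r of deviations, again given second, was not lower for all of them. The nearest to Tet3 were Ankrd12 (0.963 and 0.96), Gm15800 (0.962 and 0.96) and Rasa1 (0.958 and 0.98). Nearest to Dnmt3a were Ppid (0.952 and 0.90), Zfp874b (0.946 and 0.87) and A130010J15Rik (0.941 and 0.92). Those of Trim28 were Patz1 (0.943 and 0.88), C920025E04Rik (0.926 and 0.86) and Gm10126 (0.925 and 0.85). For Setdb1 they were Srsf6 (0.919 and 0.84), Asb13 (0.903 and 0.82) and Myb (0.891 and 0.82). For Dnmt3b they were Gm13562 (0.900 and 0.93), Ppp1r12c (0.872 and 0.83) and Dnase1 (0.863 and 0.84).

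Of 40 partner genes of the pathway, 39 were tested, and the untested gene was Dnmt3l, the germ cell cofactor of the de novo enzymes, at no more than 0.000496. Between B and T cells 25 of the 39 passed (64.1%, against 73% of all genes), with a median log2 difference of 0.13 against -0.09 over all genes. Of these, 17 were toward B cells and 8 toward T cells, against 31.4% and 41.6% of all genes. With rescaled totals 25 passed, 23 toward B cells and 2 toward T cells, against 6797 of all 12520 genes (4812 and 1985 by direction). With median-ratio scaling 29 passed, 22 and 7 by direction, against 9050 of all genes (4536 and 4514).

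Of the 5 maintenance partners, 3 passed (60%, against 73% of all genes). The chromatin remodeller Hells, needed for full methylation of repeats, was 9.08 in B cells and 3.65 in T cells (log2 difference 1.11, adjusted p = 7.6e-08), and the DNA ligase Lig1 was 7.03 and 4.09 (0.65). The replication clamp Pcna, which also binds Dnmt1, was higher in T cells, at 146 against 88.3 (-0.72), and did not pass with rescaled totals. Of the 6 methyl-CpG readers, 4 were higher in B cells (66.7%, against 31.4% of all genes higher in B cells) and 2 did not pass. The glycosylase Mbd4 was 18.6 in B cells and 5.07 in T cells (1.69, adjusted p = 8.1e-11), and the zinc finger readers Zbtb33 (also called Kaiso) and Zbtb38 differed by 0.57 and 0.24.

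Of the 7 demethylation genes, 4 were higher in B cells and 1 in T cells, against 31.4% and 41.6% of all genes. In both directions together 71.4% passed, against 73% of all genes. The stress-response genes Gadd45g and Gadd45b, which have been linked to active demethylation, had B cell means of 8.82 and 13.2 and T cell means of 1.095 and 3.33 (2.23 and 1.71), and Gadd45a differed by 0.47. Idh2, the mitochondrial enzyme that makes the Tet cosubstrate alpha-ketoglutarate, was 12.5 in B cells and 41.1 in T cells (-1.64). Of the 21 H3K9 methylation and KAP1 partners, 7 were higher in B cells, 6 higher in T cells and 8 did not pass. The share that passed was 61.9%, again against 73% of all genes. The CAF-1 chromatin assembly subunits parted, since Chaf1a was higher in B cells, 2.37 against 0.278 (1.39), and Chaf1b higher in T cells, 6.23 against 3.22 (-0.78). Chaf1a was at most 0.345 in T cells, so only the B cell libraries brought it into the test. Atf7ip, which protects Setdb1 from degradation, differed by 0.57, and the H3K9 methyltransferase Suv39h2 by 0.53. Cbx3, a heterochromatin protein, and the histone chaperone Daxx were higher in T cells (-0.83 and -0.61), and neither passed with rescaled totals.

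**Figure D5:**
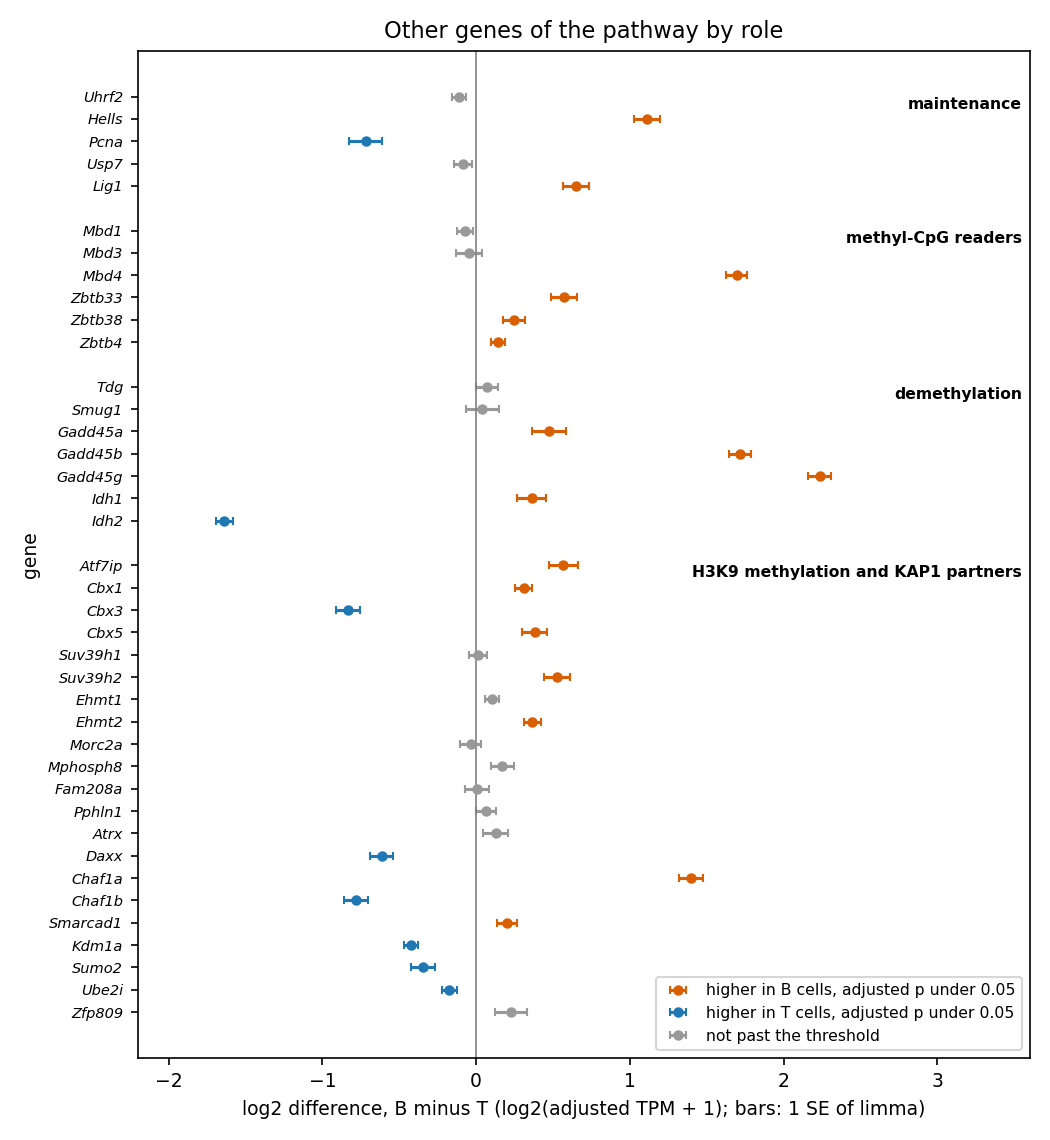
Log2 difference, B minus T, of log2(adjusted TPM + 1) for the 39 partner genes tested, by role, with bars of 1 SE of limma and colours for the side of each call. Calls lay on both sides of 0 in every role but the methyl-CpG readers, 17 toward B cells and 8 toward T cells under the deposited scaling, and 23 and 2 with totals rescaled to 1000000.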

How the data were processed

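Total RNA of 12 samples was depleted of ribosomal RNA, spiked with ERCC RNA and sequenced from stranded libraries, per the labels. The labels' molecule and library source fields read genomic DNA and genomic, and the samples were taken as RNA-seq after the protocol and the series title. The submitters' processing notes name Trim Galore, FastQC, STAR and the mm10 build. The quantifier, the adjustment behind the adjusted TPM, the level of the lower and upper values and the counting of strand are not given in the sources used here. The deposited signal values are adjusted TPM per gene, made by the authors. No spike-in was used here.

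Genes that reached an adjusted TPM of 1 in 3 or more libraries (12520 of 41128) were fitted with limma 3.58.1 in R 4.3.3 on log2(adjusted TPM + 1), with group means over the 12 libraries and a variance trend, so fold changes of low genes are understated on this scale. P-values were adjusted by Benjamini and Hochberg over all genes tested, with a threshold of 0.05. Fits were tested on simulated data. Ratios used exact two-sided permutation tests over the 6 B and 6 T libraries.

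The members, lists and tests were chosen with earlier results of these data known. All members were named. Of the partners that passed, at most the 3 with the largest difference in each direction and role were named, and of likenesses the 3 highest r.

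Same-numbered female and male libraries were checked for shared deviations from the group means. The correlations were -0.17, -0.04 and -0.34 for the B cell numbers 1 to 3 and 0.72, 0.55 and 0.52 for the T cell numbers 4 to 6. Same-numbered libraries thus shared deviations in T cells only, by the data and not by any label. Correlations between different numbers were not compared, so a pairing number by number was not shown. The same-numbered T cell libraries are called T cell pairs here. Alternatives were another pseudocount, no filter, no variance trend, both other scalings, the lower and upper values, the number as a block, each cell type alone and each library left out. Leaving out both T cell libraries numbered 6, and treating the T cell pairs as a block between B and T cells (limma's duplicateCorrelation, or pair means for ratios), were chosen after seeing the data. B cell libraries entered that fit as unpaired. Promoter windows came from RefSeq, and gene positions from GENCODE on GRCm38. Protein sequences were not used here, and 3 listed partner and marker genes are not reported here.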

Additional observations from a re-analysis of the deposited data

Results flagged for a closer look

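In groups of 6 libraries of a cell type, 32 sets of values were searched for a single library whose gap to the nearest other, divided by the range, exceeded Dixon's critical value of 0.625, and chance gives about 1 in 20 such sets. Male T cell library 4 was far from the others for Trim28, at 104 against 91.7 in the next T cell library (gap over range 0.66). The same library was far from the others in the ratio of Trim28 to Setdb1, at 5.52 against 4.53 in the next (gap over range 0.68).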

How the results depend on the processing

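With no filter, 24591 of 41128 genes passed between B and T cells, against 9134 of 12520 with it. Of all genes that passed, 43.0% were higher in B cells under the deposited scaling, 70.8% with totals rescaled to 1000000 and 50.1% with median-ratio scaling. With rescaled totals 3 of the 10 genes passed (Uhrf1, Tet1 and Tet2), overall and within females and within males. Of all 12520 genes tested, 6797 passed overall with rescaled totals, and those that passed within each sex were not counted. These log2 differences turned sign with rescaled totals: Dnmt1 0.047, Dnmt3a 0.20, Dnmt3b 0.14, Tet3 0.22, Trim28 0.20, Setdb1 0.26, Mcm2 0.029, Dnmt3a within females 0.0014, and Mbd2, Dnmt1 and Dnmt3a within males 0.16, 0.28 and 0.39. Uhrf1 (2.14 to 2.92), Tet1 (-2.28 to -1.49) and Tet2 (0.48 to 0.89) kept their direction and call between B and T cells in 21 of 21 alternatives. Leaving out 1 library at a time, or both T cell libraries numbered 6, gave 6 to 9 of the 10 genes, the 9 without male B cell library 2, where Dnmt3b (adjusted p = 0.012) and Setdb1 (adjusted p = 0.038) also passed. The same settings gave 8717 to 9233 of all 12520 genes. The difference, B minus T, in the log2 ratio of Dnmt3a to Dnmt3b was -0.013 with a pseudocount of 1 and -0.029 to 0.093 with libraries left out. That in the log2 ratio of Dnmt1 to Dnmt3a was -0.30 to -0.11 with libraries left out. With the replicate number as a block, 0 of the 10 genes passed between the sexes in B cells, in T cells or in the interaction. With the T cell pairs as a random block between B and T cells (correlation 0.48), 7 of the 10 genes passed, 6 within females and 5 within males, and the pairing changed none of these genes' calls. Of all 12520 genes, 8736 passed between B and T cells with that block, and those that passed within each sex were not counted. Over pair means, 3 ratios passed (adjusted p = 0.024, exact permutation test, 84 arrangements). The depth is unknown, and 3 libraries a group limit the precision. The causes of these changes were not tested.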
